A study of Oryza sativa Japonica Group with 9 samples.

Results

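The 44 loci described here differed in the wox11 mutant from both other genotypes of a rice shoot apex study. They are 44 of 55706 named loci with an expression estimate marked OK in all 6 RNA libraries. 33 were higher in wox11 and 11 were lower. They were chosen by their FPKM, the fragments assigned to a locus, scaled by transcript length and library size. A higher locus had at least 2 FPKM in both wox11 libraries and at least 2 times the largest of the 4 wild-type and jmj705 values. A lower locus had at least 2 FPKM in all 4 of those libraries, and the smallest of them was at least 2 times both wox11 values. 4 loci that also meet this rule were left out. The choice used every RNA library, so levels of the 44 loci in wox11 beside the other genotypes are a description and carry no test.

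Messenger RNA came from shoot apices of 2 to 3 mm, cut from 5-day-old seedlings of the japonica rice cultivar Hwayoung that had 14 h of light and 10 h of darkness per day. Listed temperatures were 28 °C by day and 24 °C by night, and sucrose was listed as 2%, the same for every sample. The genotypes were wild type, the wox11 mutant and the jmj705 mutant, with 2 libraries each, which the design text describes as biological repeats. Chromatin immunoprecipitation and sequencing (ChIP-seq) with anti-FLAG used apices that over-express JMJ705, and gave 1 peak list in wild-type plants and 1 in wox11 plants. The nature of the mutant alleles, the number of seedlings pooled and the promoter of the over-expression construct are not stated in the sources used here.

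WOX11 encodes a homeobox transcription factor of the WUSCHEL-related family, best known in rice for its part in crown root formation. JMJ705 encodes a Jumonji-type demethylase of histone H3 lysine 27 trimethylation, a mark that Polycomb complexes place on silenced genes. A transcription factor can raise or lower its targets directly, and a mutant also carries changes further downstream, which expression values do not separate. In bulk tissue, fewer cells of a type and less RNA per cell cannot be told apart.

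The targeted genes were read as a check of the labels. WOX11 (LOC_Os07g48560) had 4.52 and 5.00 FPKM in wild type, 1.49 and 1.11 in wox11, and 4.57 and 7.56 in jmj705. JMJ705 (LOC_Os01g67970) had 7.41 and 6.73 FPKM in wild type, 8.39 and 8.10 in wox11, and 13.7 and 12.5 in the libraries labelled jmj705, so its transcript was highest where the mutant label stands. Directions given for jmj705 follow the labels as deposited. Shoot markers were present in all 6 libraries: OSH1, a meristem homeobox gene, lay between 42.7 and 69.2 FPKM, and WOX4 between 1.53 and 3.08. The fitted log2 change in wox11 was below 0 for all 7 shoot markers, with a median of -0.41, and 0 of the 7 passed the test described with the gene lists. Their summed FPKM was 236 and 255 in wild type, 178 and 204 in wox11, and 201 and 253 in jmj705. The part of this shift in the levels of the 44 loci was not tested. Of the 5 floral organ genes, MADS1, MADS3 and MADS6 did not exceed 0.261 FPKM in any library, MADS16 lay between 2.35 and 3.55, and MADS58 between 0.384 and 2.48. Read depth per library is unknown from FPKM. Named loci summed to between 700781 and 821366 FPKM.

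The 33 higher loci fell into a group that was close to 0 in every library outside wox11 and a group that was not. 11 loci had less than 0.3 FPKM in each of the 4 wild-type and jmj705 libraries, a limit set after their values had been seen. Their wox11 means ran from 2.1 to 70.6 FPKM with a median of 8.35, and 3 of them were listed at 0 in all 4 other libraries. The files name no function for them, and only 1 could be paired with a gene symbol.

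LOC_Os03g18779, on chromosome 3 from 10518910 to 10520197, had 68.6 and 72.5 FPKM in wox11, 0.155 and 0.242 in wild type, and 0.279 and 0.159 in jmj705. Both wox11 libraries were high and the other 4 were near 0, which made this the widest gap of the 33 once 0.1 FPKM was added to both sides. The deposited confidence bounds were 43.9 to 93.4 and 46.6 to 98.5 FPKM in wox11, and no upper bound in the other libraries exceeded 0.687. The next expressed locus before it, LOC_Os03g18770, ends 548 bp away and had 44.2 and 32.9 FPKM in wox11, 38.0 and 35.1 in wild type, and 85.1 and 48.0 in jmj705. That neighbour was not high in wox11.

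LOC_Os03g12270 corresponds to CAD9, a member of the cinnamyl alcohol dehydrogenase family, whose enzymes make the alcohols from which lignin is built. It has 2 entries that share the coordinates 6452948 to 6457850 on chromosome 3, and both are among the 33. The entry under its own name had 24.6 and 25.6 FPKM in wox11, 0.0505 and 0.134 in wild type, and 0.0348 and 0.113 in jmj705. The entry that joins it with LOC_Os03g12280 had 35.5 and 36.0 FPKM in wox11, 7 and 5.16 in wild type, and 5.48 and 7.14 in jmj705. Both entries were high in wox11 alone, by different amounts, and reads of these overlapping models may be divided between them. The next locus, LOC_Os03g12290, had 132 and 127 FPKM in wox11, 205 and 201 in wild type, and 175 and 306 in jmj705, which put its wox11 values below the rest.

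4 of the 11 loci near 0 elsewhere lie on chromosome 12. LOC_Os12g40650 (25168782 to 25172058) had 13.8 and 11.6 FPKM in wox11, and at most 0.0486 in any other library. LOC_Os12g27800 (16386530 to 16389748) had 11 and 8.06 FPKM in wox11, and 0.0345 in jmj705 replicate 2 was its only value above 0 elsewhere. Neither locus overlapped between wox11 and the others. The entry that joins LOC_Os12g13445 and LOC_Os12g13450 (7536249 to 7541398) had 8.19 and 8.40 FPKM in wox11 and at most 0.0380 elsewhere. LOC_Os12g05220 had 3.28 and 3.33 FPKM in wox11, with deposited bounds from 0 to 7.1 and from 0 to 7.24. It was listed at 0 in the other 4 libraries. Its name has a second entry at the same coordinates, with 0.646 and 0.530 FPKM in wox11 and at most 0.179 elsewhere, so its reads too may be divided.

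The other 5 loci of this kind lie on chromosomes 3, 4 and 9. LOC_Os04g32610 (chromosome 4, 19640555 to 19642509) had 8.80 and 7.91 FPKM in wox11 and was listed at 0 in the other 4 libraries. LOC_Os03g59190 had 6.56 and 5.51 FPKM in wox11 and at most 0.0797 elsewhere. LOC_Os03g26280 had 12.5 and 8.06 FPKM in wox11, and its value of 0.210 in jmj705 replicate 2 stood above 0.0293, 0 and 0.0293 in the other libraries. In all 3 the wox11 values were above the others, but the deposited bounds of LOC_Os03g26280 in wox11 ran from 0 to 33.2 and from 0 to 23.2 FPKM, so its level is imprecise. LOC_Os04g11962, an entry of 354 bp, had 5.85 and 6.99 FPKM in wox11 and 0.253 in wild-type replicate 2. LOC_Os09g38104, of 305 bp, had 2.11 and 2.08 FPKM in wox11 and was listed at 0 elsewhere. The deposited bounds of these short entries also reached down to 0 in wox11.

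**Figure D1:**
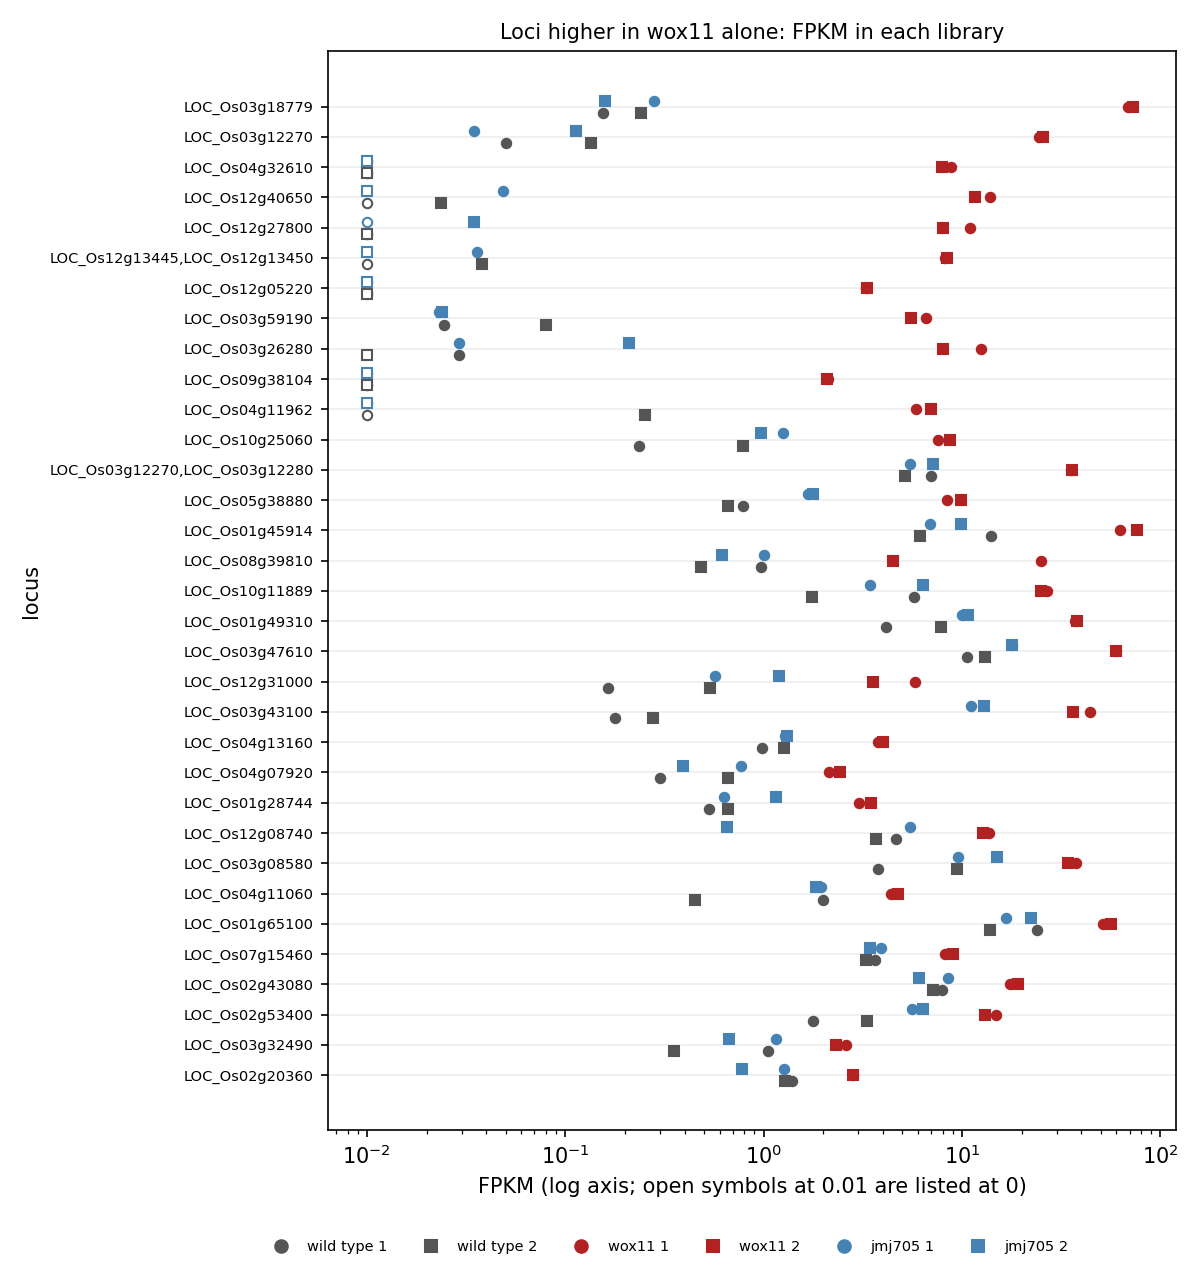
FPKM of the 33 loci higher in wox11 than in both other genotypes, on a log axis, with 1 row per locus and 1 symbol per library. Circles are replicate 1 and squares replicate 2, in grey for wild type, red for wox11 and blue for jmj705. Open symbols placed at 0.01 are listed at 0. In the 11 top rows all grey and blue symbols lie below 0.3 FPKM, and in the other 22 rows at least 1 of them lies at 0.3 FPKM or above.

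For these 11 loci the larger wox11 value was 1.01 to 1.55 times the smaller. The deposited bounds of the wox11 libraries were apart from those of all other libraries in 7 of the 11. The rule and the limit of 0.3 FPKM used these libraries, so both are a description and no check of the loci. The expressed loci next to them on either side, 22 in all, had a median log2 difference of 0.03 between the wox11 mean and the mean of the other genotypes, with a range from -0.77 to 0.29. The same rule applied to jmj705 gave 33 higher and 10 lower loci. Of the higher, 9 (27.3%) were below 0.3 FPKM elsewhere. Applied to wild type it gave 13 higher loci, of which 0 were, and 51 lower ones. In wox11 the share was 33.3%. The share in wox11 was close to that in jmj705, and the difference was not tested.

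The other 22 higher loci were expressed in at least 1 library outside wox11 at 0.3 FPKM or more. The ratio between the smaller wox11 value and the largest value elsewhere ran from 2.01 to 6.04 among them, with a median of 2.79. LOC_Os10g25060 (chromosome 10, 12899339 to 12902162) had 7.56 and 8.72 FPKM in wox11, 0.235 and 0.791 in wild type, and 1.25 and 0.972 in jmj705. Its ratio of 6.04 was the widest of the 22. LOC_Os05g38880 had 8.46 and 9.95 FPKM in wox11, 0.792 and 0.660 in wild type, and 1.68 and 1.77 in jmj705. In both loci wild type was lowest, jmj705 came next and wox11 stood well above.

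At higher levels, LOC_Os01g45914 had 62.7 and 76.5 FPKM in wox11, 14.0 and 6.17 in wild type, and 6.88 and 9.87 in jmj705. LOC_Os03g47610 had 59.9 and 59.7 FPKM in wox11, 10.6 and 13 in wild type, and 17.8 and 17.9 in jmj705. The wild-type and jmj705 values overlapped in the former, whereas in the latter jmj705 lay between the other genotypes. LOC_Os01g65100 had 51.6 and 56.5 FPKM in wox11, 24.0 and 13.9 in wild type, and 16.8 and 22.3 in jmj705. Its wild-type replicates were further apart than its wox11 replicates.

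LOC_Os07g15460 corresponds to Nramp1, a metal transporter gene of the natural resistance-associated macrophage protein family. It had 8.21 and 8.99 FPKM in wox11, 3.63 and 3.28 in wild type, and 3.90 and 3.43 in jmj705. The wild-type and jmj705 values overlapped within a narrow range, and both wox11 values were higher. Nramp1 and CAD9 were the only members that could be paired with a symbol.

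The wox11 libraries themselves did not always agree. LOC_Os08g39810 had 25.1 FPKM in wox11 replicate 1 and 4.47 in replicate 2, with 0.966 and 0.483 in wild type and 1.01 and 0.616 in jmj705. Its wox11 values thus differed 5.61-fold while both stayed above the other 4. Over all 44 loci the larger wox11 value was a median of 1.12 times the smaller, 39 loci were within 1.5 times, and 3 differed at least 2-fold. The other 2 were the lower loci LOC_Os09g39510 and LOC_Os10g40510. The rule used these wox11 values, so their agreement is a description.

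3 of the 22 belong to stretches where the deposited table gives several loci a shared span of more than 50 kb. LOC_Os01g49310 had 37.2 and 37.9 FPKM in wox11, 4.17 and 7.86 in wild type, and 9.97 and 10.8 in jmj705, but its deposited bounds ran from 0 in every library. LOC_Os12g08740 had 13.7 and 12.7 FPKM in wox11, 4.66 and 3.68 in wild type, and 5.46 and 0.653 in jmj705. A second entry of that name at the same span had 17.8 and 18.3 FPKM in wox11, 18.0 and 17.2 in wild type, and 18.1 and 14.5 in jmj705. The second entry did not set wox11 apart. The other of the 3, LOC_Os02g43080, is described with the peaks. LOC_Os02g53400, which spans 3566 bp and is not among the 3, had 14.9 and 13.1 FPKM in wox11 and at most 6.33 elsewhere. It likewise has a second entry, which stayed below 1 FPKM. In all, 9 of the 44 entries share coordinates with another entry and 2 join several genes.

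The 11 lower loci had wild-type means of 5.7 to 333 FPKM, with a median of 18.3. The ratio between the smallest value elsewhere and the larger wox11 value ran from 2.12 to 30.5, with a median of 2.75. 2 of the 11, LOC_Os09g39510 and LOC_Os03g59090, were below 1 FPKM in both wox11 libraries. None of the 11 shares coordinates with another entry or joins several genes, and the files name no function for them.

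The widest gap was on chromosome 9. LOC_Os09g39510 (22695120 to 22696145) had 0.0416 and 0.398 FPKM in wox11, 15.6 and 13 in wild type, and 12.2 and 29.4 in jmj705. LOC_Os09g39530 (22699920 to 22700959), which begins 3774 bp beyond it, had 2.78 and 3.99 FPKM in wox11, 39.7 and 41.1 in wild type, and 37.3 and 64.1 in jmj705. In both, the wox11 values were far below the others, and wild type and jmj705 overlapped. LOC_Os09g39520 lies between them and was listed at 0 in both wox11 libraries, with 0.163 and 0.234 FPKM in wild type and 0.325 and 1.55 in jmj705. The loci on either side did not share the pattern: LOC_Os09g39500 had 392 and 519 FPKM in wox11 and 522 and 598 in wild type, and LOC_Os09g39540 had 472 and 584 against 609 and 718.

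A second pair of lower neighbours lies on chromosome 10. LOC_Os10g40510 (21690274 to 21691088) had 12.5 and 4.21 FPKM in wox11, 57.1 and 36.7 in wild type, and 33.9 and 47.5 in jmj705. LOC_Os10g40520 (21693776 to 21694502), beginning 2687 bp further on, had 2.23 and 2.01 FPKM in wox11, 23.3 and 13.3 in wild type, and 10.2 and 13.7 in jmj705. LOC_Os10g40530, which is not a member, had 22.9 and 13.8 FPKM in wox11, 91.4 and 40.6 in wild type, and 42.1 and 47.2 in jmj705. In all 3 loci both wox11 values were below the other 4, and wox11 replicate 1 was the higher of the pair. LOC_Os10g40480, before the pair, had 1.13 and 0.635 FPKM in wox11, 2.19 and 1.98 in wild type, and 5.16 and 6.01 in jmj705, again lowest in wox11. LOC_Os10g40540, after it, had 54.6 and 62.9 FPKM in wox11 and 52.7 and 58.1 in wild type, and was not low in wox11. LOC_Os10g40490, between LOC_Os10g40480 and the pair, had 1.11 and 0.251 FPKM in wox11, 0.367 and 0.179 in wild type, and 0.655 and 0.377 in jmj705, so it overlapped between genotypes and the low loci are not an unbroken run.

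Among the remaining lower loci, LOC_Os08g39330 was the most abundant, with 116 and 82.8 FPKM in wox11, 397 and 268 in wild type, and 247 and 256 in jmj705. LOC_Os02g49680 had 9.97 and 7.13 FPKM in wox11, 52.5 and 49.4 in wild type, and 30.4 and 27.3 in jmj705. For these loci jmj705 lay between wox11 and wild type. LOC_Os04g53180 had 1.07 and 1.51 FPKM in wox11, 7.10 and 10.1 in wild type, and 4.22 and 5.87 in jmj705. LOC_Os03g59090 had 0.837 and 0.816 FPKM in wox11, 7.06 and 5.61 in wild type, and 3.02 and 2.30 in jmj705. These also had jmj705 in the middle, with no overlap of the 3 genotypes.

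LOC_Os10g26150 showed a different order, with 1.59 and 1.57 FPKM in wox11, 5.21 and 6.20 in wild type, and 9.68 and 9.39 in jmj705. Here jmj705 was the highest genotype and wox11 the lowest. LOC_Os06g35480 had 6.96 and 5.58 FPKM in wox11, 17.6 and 19.4 in wild type, and 16.8 and 17.6 in jmj705. LOC_Os09g27750 had 3.42 and 3.75 FPKM in wox11, 9.26 and 10.2 in wild type, and 9.06 and 17 in jmj705. In these the wild-type and jmj705 ranges met or overlapped.

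**Figure D2:**
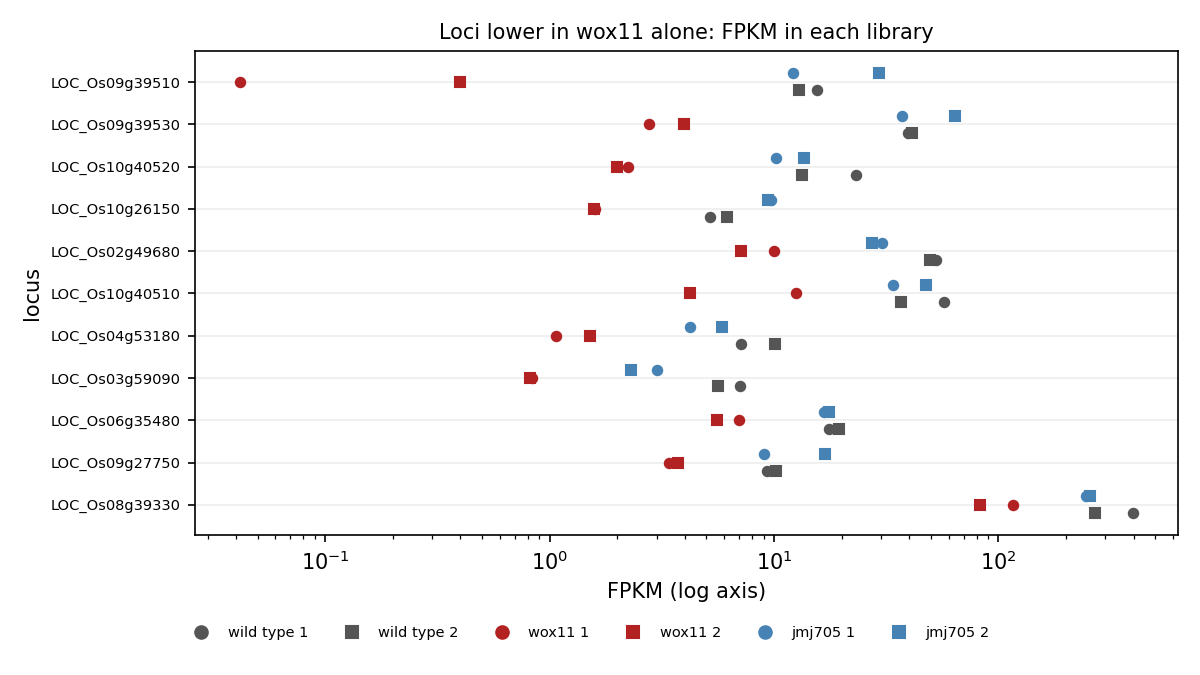
FPKM of the 11 loci lower in wox11 than in both other genotypes, on a log axis, with 1 row per locus and 1 symbol per library. Circles are replicate 1 and squares replicate 2, in grey for wild type, red for wox11 and blue for jmj705. The red symbols lie left of the rest in every row, by 30.5 times in the top row and by 2.12 times in the bottom row.

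The fold limit of the rule divides a continuous range. The higher loci just inside it were LOC_Os02g20360 (ratio of the nearest values 2.012), LOC_Os03g32490 (2.029) and LOC_Os02g43080 (2.065). LOC_Os07g23660 lay just outside, at a ratio that rounds to 2 and does not reach it, followed by LOC_Os02g17620 (1.964) and LOC_Os03g04660 (1.866). The lower loci just inside were LOC_Os08g39330 (2.119), LOC_Os06g35480 (2.411) and LOC_Os09g27750 (2.417), and just outside were LOC_Os09g26840 (1.98), LOC_Os02g39360 (1.949) and LOC_Os04g09450 (1.944). The deposited confidence bounds of wox11 were apart from those of the other 4 libraries in 12 higher and 4 lower loci. The 4 loci left out were LUX, LHY, PORA and WOX11. LUX, an evening clock gene, had 45.9 and 48.2 FPKM in wox11, 0.913 and 3.44 in wild type, and 3.80 and 6.11 in jmj705, while LHY, a morning clock gene, had 5.31 and 4.85, 147 and 123, and 54.1 and 40.9, in the same order.

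Loci were also chosen in the libraries of 1 replicate number and read in the other. This describes how such a choice carries over within these libraries, all of which the rule used. Chosen in replicate 1 with the same minimum and fold, 121 loci were higher in wox11 than in both other genotypes. In replicate 2, wox11 was the highest of the 3 libraries in 74 of them (61.2%), beside 33.6% over all 19399 loci with at least 2 FPKM in 1 of those libraries, and 35 (28.9%) passed the fold again. Of 72 lower loci, 50 (69.4%) had wox11 lowest in replicate 2, beside 36.5% of all loci, and 17 (23.6%) passed the fold. Over all 19399 loci, 114 passed the fold as higher and 106 as lower in replicate 2. More than 7 in 10 higher loci of replicate 1 therefore did not reach the same fold in replicate 2.

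Chosen in replicate 2, 114 loci were higher, of which 67 (58.8%) had wox11 highest in replicate 1, beside 26.0% of all 19596 loci, and 35 (30.7%) passed the fold. Of 106 lower loci, 75 (70.8%) had wox11 lowest in replicate 1, beside 31.7% of all loci, and 17 (16.0%) passed the fold. Over all 19596 loci, 121 passed the fold as higher and 72 as lower in replicate 1. The 35 higher and 17 lower loci that passed the fold in both replicates are the same loci in either direction of reading. By the rule they include all 33 higher and 11 lower members. The members are thus also among the loci counted on the same side, and they raise those shares. None of these counts is a separate check of the members. In both directions of reading, the chosen loci, members included, lay on the same side about 2 times as often as all loci. For loci chosen in jmj705 by the same steps the shares were 46.1% and 54.3% of higher loci (beside 31.5% and 32.8% of all loci) and 65.6% and 74.6% of lower loci (beside 38.8% and 31.5%), in the same order of replicates. For wild type they were 65.4% and 71.1% of higher loci (beside 34.9% and 41.1%) and 65.8% and 83.6% of lower loci (beside 24.5% and 36.7%). A share above that of all loci was thus seen in each genotype. Libraries of the same number deviated together in part, which is described with the processing, and libraries are the only replicates that the design has.

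**Figure D3:**
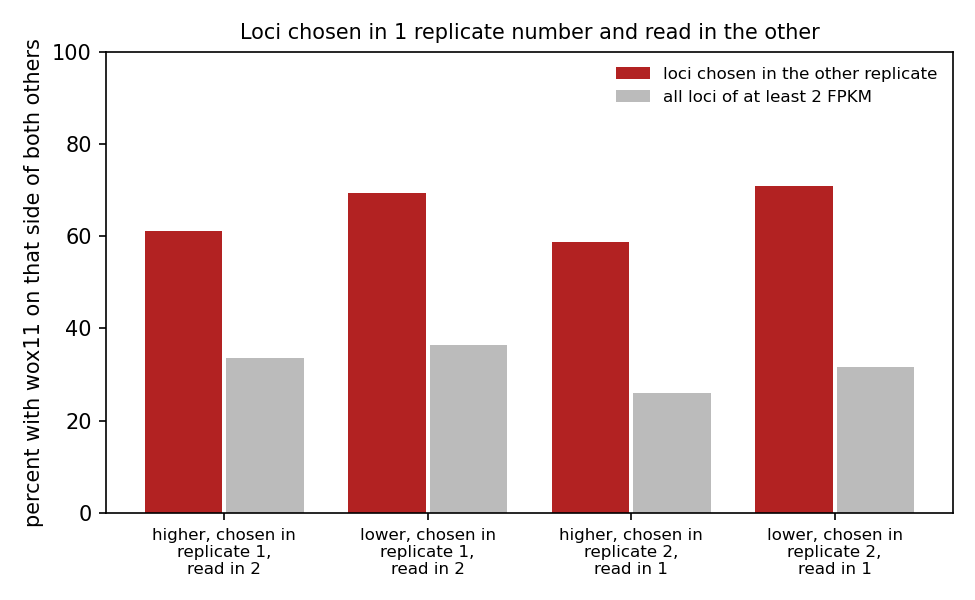
Percent of loci with wox11 on the stated side of both other genotypes, for loci chosen by the rule in the libraries of the other replicate number (red) and for all loci of at least 2 FPKM in 1 of the 3 libraries read (grey). The red bars are 61.2%, 69.4%, 58.8% and 70.8%, and the grey bars are 33.6%, 36.5%, 26.0% and 31.7%. The members are among the chosen loci by the rule and raise the red bars.

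Whether the loci also differ between jmj705 and wild type was read from the 4 libraries outside wox11. The rule bounds those values together and leaves their order free. Of the 33 higher loci, both jmj705 values were above both wild-type values in 9 (27.3%), below in 2 and overlapping in 22, beside 17% above and 21.6% below over 19938 named loci with at least 2 FPKM in a library. All 9 belong to the 22 loci expressed elsewhere. Of the 11 lower loci, jmj705 was below wild type in 4 (36.4%), above in 1 and overlapping in 6. The counts are small, the rule used these values and both mutants are set against the same wild-type libraries, so no more is read from them.

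By limma on log2(FPKM + 1) with Benjamini-Hochberg adjustment, 86 of 21480 loci (0.4%) passed the test of jmj705 against wild type, among them 1 of the 44. The rule used the values of these libraries, so that call is given as a description, without a p. LOC_Os03g43100 (chromosome 3, 24046089 to 24047243) had 0.178 and 0.277 FPKM in wild type, 11.1 and 12.9 in jmj705, and 44.2 and 36.1 in wox11. The 3 genotypes did not overlap, with wild type near 0, jmj705 in between and wox11 highest. The log2 change of LOC_Os03g43100 from wild type to jmj705 was 3.40 (SE 0.159), and both jmj705 libraries were above both wild-type libraries. LOC_Os03g59090 had a log2 change of -1.0 (SE 0.18), LOC_Os02g49680 of -0.80 (SE 0.16) and LOC_Os02g53400 of 1.01 (SE 0.22). The other 43 loci did not pass, and with 2 libraries per genotype a miss does not show that their values were alike.

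**Figure D4:**
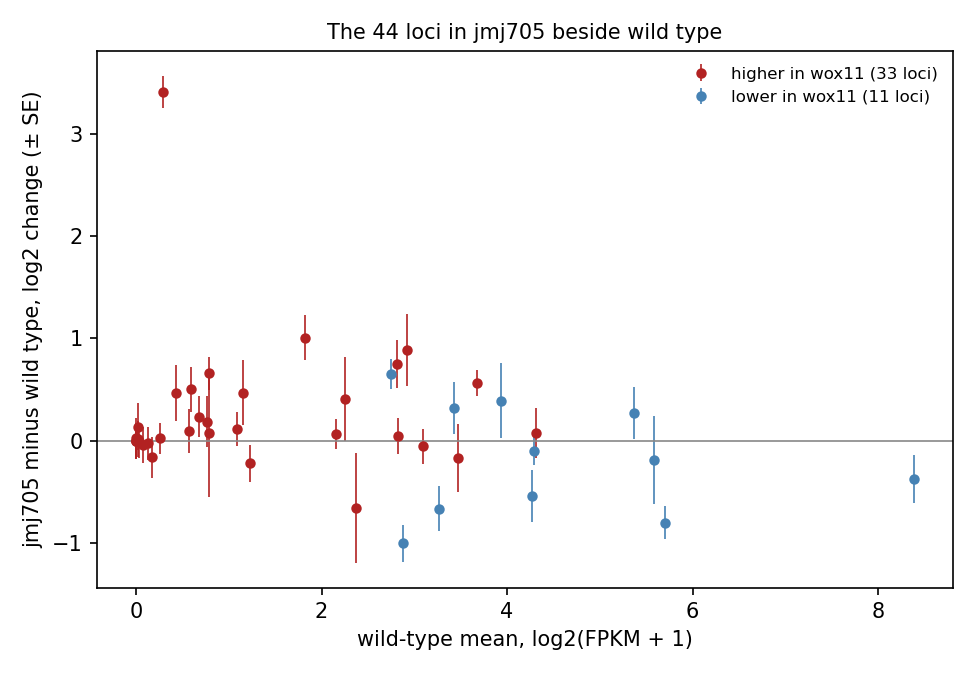
Log2 change from wild type to jmj705 on the log2(FPKM + 1) scale, with its standard error from the fit over all loci, against the wild-type mean on the same scale, for the 33 loci higher in wox11 (red) and the 11 lower (blue). LOC_Os03g43100 stands alone at 3.40, and the other 43 loci lie between -1.0 and 1.01.

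The loci were compared with JMJ705 binding through the authors' peak lists, which the rule did not use. The lists hold 1551 peaks in the wild-type background and 1309 in the wox11 background, called on 5043282 and 7509947 tags, with no replicate of either. Within 2 kb of a locus, 4 of the 44 loci (9.09%) had a peak in the wild-type background and 2 (4.55%) in the wox11 background, beside 4.69% and 4.14% of all named loci with at least 2 FPKM in a library. These counts are too small to set the 44 loci apart from expressed loci as a whole. The peak's fold enrichment over its control is the authors' value.

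2 loci with a peak have coordinates of their own. The entry of LOC_Os12g13445 and LOC_Os12g13450, near 0 outside wox11, had a peak of 6.38-fold enrichment across its end, at 7541220 to 7542148 on chromosome 12, in the wild-type background. LOC_Os02g49680, lower in wox11, had a peak of 5.76-fold enrichment that begins 582 bp beyond it, at 30364328 to 30364905 on chromosome 2, also in the wild-type background. Neither had a listed peak in the wox11 background, where the smallest false discovery rate of any peak was 5.59%, beside 1.3% in the wild-type background. The difference between the lists was not tested.

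The other loci with a peak, LOC_Os12g08740 and LOC_Os02g43080, had peaks in both backgrounds, and both lie in long shared spans, so that the distance from the peak to the gene itself is not known. LOC_Os02g43080 had 17.6 and 19.1 FPKM in wox11, 7.93 and 7.14 in wild type, and 8.51 and 6.10 in jmj705. Its peaks had 11.53-fold enrichment on 32 tags in the wild-type background and 5.83-fold on 36 tags in the wox11 background. The control tags also differed, with 16955031 for the wild-type and 12699735 for the wox11 background. The fold values are therefore not read as a difference in binding. For the 35 loci with coordinates of their own, the median distance to the nearest peak was 96253 bp in the wild-type background and 100469 bp in the wox11 background. Over 16374 expressed loci with coordinates of their own the medians were 98873 and 112005 bp. The 35 loci were thus about as far from peaks as expressed loci in general.

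Position on the chromosomes was not used by the rule either. Chromosome 3 held 10 of the 44 loci (22.7%, beside 13.6% of expressed loci), chromosome 12 held 6 (13.6% beside 5.57%) and chromosome 4 held 6 (13.6% beside 8.73%). Chromosome 10 held 5 (11.4% beside 5.13%) and chromosome 9 held 4 (9.09% beside 5.5%). On every other chromosome the share of the 44 loci was below that of expressed loci. The 44 entries lie at 43 distinct positions, since both entries of LOC_Os03g12270 on chromosome 3 share their coordinates. Chromosome 11 held 0 (beside 5.22%). 8 of the 11 loci near 0 elsewhere were on chromosomes 3 and 12, with 4 on each. All 6 loci on chromosome 12 were higher in wox11. The shares were not tested.

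**Figure D5:**
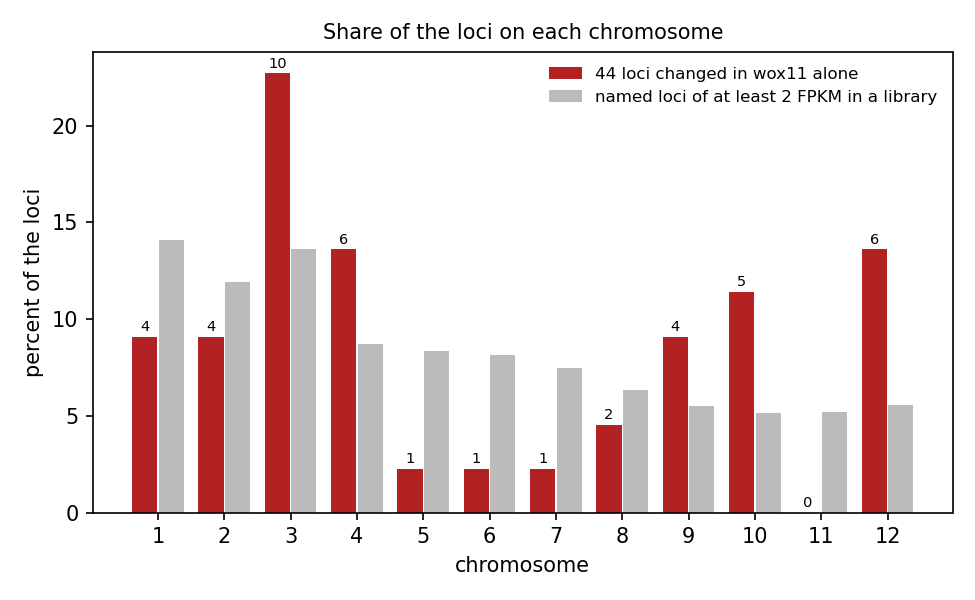
Percent of the 44 loci (red, with their number above each bar) and of all named loci with at least 2 FPKM in a library (grey) on each of the 12 chromosomes. Chromosome 3 holds 10 of the 44 loci, with both entries of LOC_Os03g12270 counted at the same position, and chromosome 11 holds 0.

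8 loci had another member within 100 kb. They are the pairs on chromosomes 9 and 10, the 2 entries of LOC_Os03g12270, and LOC_Os03g59090 with LOC_Os03g59190, which lie 60975 bp apart on chromosome 3 and went opposite ways, the former lower and the latter higher in wox11. The 82 expressed loci next to members had a median absolute log2 difference of 0.15 between wox11 and the other genotypes, beside 0.12 over all expressed loci. 4 of the 82 (4.88%) differed by at least 1 on that scale, beside 1.24% of all. Besides LOC_Os10g40480 and LOC_Os10g40530 these were LOC_Os04g11040 (34.5 and 19.9 FPKM in wox11, 7.67 and 4.57 in wild type, 15.9 and 23.5 in jmj705) and LOC_Os04g13140 (3.20 and 2.65, 8.91 and 8.61, and 5.12 and 7.61, in the same order). The former was not apart from jmj705 and the latter was lowest in wox11. Members with coordinates of their own spanned a median of 1870 bp, against 3774 bp for expressed loci.

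None of the 44 loci was on the lists of clock, flowering time, light harvesting, chlorophyll synthesis or heat shock genes. Nor was any on the lists of defence, jasmonate, diterpenoid phytoalexin or type-A cytokinin response regulator genes. LUX, LHY and PORA had been left out of these lists as they were from the members. The absence from the clock and chlorophyll lists was thus partly set by that choice. The members are 44 of 55706 named loci, a share at which lists this short would hold few or none of them. The lack of overlap is therefore not read as a result about the members. In the test of wox11 against wild type, 180 of 21480 loci (0.838%) passed by limma, 98 higher and 82 lower. Of 11 clock genes tested, 2 rose: GI, a regulator of flowering time, had 197 and 213 FPKM in wox11 and 43.9 and 56.6 in wild type, and FKF1, a blue-light receptor, had 22.0 and 19.1 against 1.41 and 4.48. GI had 147 and 140 FPKM and FKF1 11.5 and 17.2 in jmj705, less than 2-fold below wox11, so neither meets the rule. Of 12 light harvesting genes 3 fell, of 9 chlorophyll synthesis genes 1 fell, and of 5 flowering time genes 1 fell. Of 5 heat shock, 5 defence, 9 jasmonate and 8 response regulator genes tested, 0 passed, and the 10 diterpenoid genes were below the expression filter. The list medians, as log2 change in wox11, were 0.19 for clock (without LHY and LUX), 0.24 for flowering time, -1.32 for light harvesting, -0.59 for chlorophyll synthesis, -0.32 for heat shock, 1.05 for defence, 0.39 for jasmonate and 0.10 for response regulator genes, beside -0.02 over all loci.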

How the data were processed

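RNA-seq and ChIP-seq of 5-day-old shoot apices were used as deposited. The authors' tables give FPKM per locus with confidence bounds, per the file headers. Trimmomatic, TopHat and Cufflinks are named in the submitters' processing notes, and no source used here names the genome build. Per the file headers, the authors called peaks with MACS 1.4.2 and a p-value cutoff of 1e-05. Each deposited list holds, for a peak, its tag count, its false discovery rate as a percent, its fold enrichment (a ratio) and a score. An input DNA sample was not analysed here. Of 57567 loci, 1848 without a name and 13 named loci without an OK status were left out.

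Members and gene lists were chosen with earlier results of these data known. FPKM were used unscaled (median-ratio factors 0.997 to 1.014). limma 3.58.1 in R 4.3.3 was fitted to log2(FPKM + 1) of 21480 loci with at least 1 FPKM in 2 libraries, with all 3 genotypes, a trend and Benjamini-Hochberg adjustment at 0.05. All 44 members passed that filter. Fold changes on this scale understate changes of low loci. The fit was tested on simulated data. P-values set the difference between genotypes against the spread between these libraries, moderated over all loci. Same-numbered libraries deviated together (r = 0.292, 0.118 and 0.114 for the 3 pairs of genotypes, over loci), so the replicate number was also fitted as a block. Peaks within 2 kb of a locus were counted.

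Loci named are the targeted genes and, among members, the 12 higher with the widest gap between the nearest values (0.1 FPKM added), all 11 lower, those with a symbol or a peak, the neighbours within 100 kb and the 3 nearest to the fold limit. LOC_Os01g45914, LOC_Os01g49310, LOC_Os01g65100, LOC_Os02g53400, LOC_Os03g43100, LOC_Os03g47610, LOC_Os05g38880 and LOC_Os08g39810, and loci beside members, were named after their values were seen. Symbols were matched to RefSeq (ASM3414082v1) by a like chromosomal place where RefSeq holds the symbol. This held for 53 of the 89 list and marker genes, and 1 lay elsewhere. For 35 the symbol was not found, so their locus identifiers were not checked by place. Among these were FKF1, COL4, GUN4 and all 12 light harvesting genes. Of 89 list and marker genes, 86 had a single usable entry and 64 were tested. Promoter motifs were not run, since promoter sequences were not used here.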

Additional observations from a re-analysis of the deposited data

Results flagged for a closer look

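LOC_Os10g26150 lay on opposite sides of wild type in the mutants: both wox11 libraries were below both wild-type libraries, and both jmj705 libraries were above them. Its mean FPKM was 9.53 in jmj705, 5.7 in wild type and 1.58 in wox11. LOC_Os02g20360 had the reverse order, with a mean FPKM of 2.83 in wox11, 1.34 in wild type and 1.02 in jmj705. Its wild-type and jmj705 values nearly met, at 1.28 in wild-type replicate 2 and 1.26 in jmj705 replicate 1. The difference between the mutants was not tested for either locus, since the rule used these values. Neither passed the limma test of jmj705 against wild type, and the deposited bounds of LOC_Os10g26150 ran from 0 in every library. The deposited bounds of LOC_Os02g20360 overlapped between all genotypes.

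Among the loci without a gene name, which are outside the 44, the same rule found 6 higher in wox11 alone and 1 lower. 5 of the 6 were near 0 elsewhere. The most abundant, on chromosome 3 from 12829847 to 12831850, had 39.2 and 48.6 FPKM in wox11 and at most 0.0735 in any other library. 3 entries lie together on chromosome 5 between 16433548 and 16437237, with 6.91 to 9.62 FPKM in wox11, and were listed at 0 in the other 4 libraries. In jmj705 the rule found 10 unnamed loci higher, 7 of them near 0 elsewhere.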

How the results depend on the processing

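The number of loci depends on the limits of the rule. At a fold of 1.5 there were 62 higher and 45 lower loci, at a fold of 3 there were 19 and 4, and with the deposited confidence bounds apart 12 and 4. Leaving out each library in turn can only add loci, and gave 34 to 63 higher and 14 to 59 lower. Other FPKM minimums, median-ratio factors, a pseudocount and leaving out shared or joined entries kept both counts within 1.5 times. The call of LOC_Os03g43100 in jmj705 held in every alternative with 2 libraries per genotype, the replicate block included. These alternatives were fitted to the libraries that the rule used, so the call stays a description. Over all loci, wox11 against wild type gave 180 calls, 230 with the replicate block and 21 to 182 without single libraries (67 and 89 without wild-type replicates 1 and 2, 34 and 21 without wox11 replicates 1 and 2).

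Of the 4 loci with a peak in the wild-type background, 2 were left with the peaks above the median fold enrichment of their list. Among the 35 loci with coordinates of their own, 2 (5.71%) had a peak, beside 3.35% of 16374 such expressed loci. This second alternative was chosen after seeing the data. In the wox11 background these settings left 0 and 0, the latter beside 3% of expressed loci with coordinates of their own. For the peaks above the median the share over all loci was not counted. A false discovery rate of at most 5% leaves no peak in the wox11 list and gave no value there. Chosen in replicate 1, 124 loci of both directions were on the same side in replicate 2, against 47 at a fold of 3 and 71 at a minimum of 5 FPKM, where fewer loci are chosen, and from replicate 2 to 1 the counts were 142, 51 and 94. As shares of the loci chosen these were 64.2%, 63.5% and 71.0%, and 64.5%, 62.2% and 83.9%. Members are among these loci too. The cause of the other shifts was not tested. Depth is unknown, so the precision of low values rests on the deposited bounds alone.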
